A study of Homo sapiens with 39 samples.

Results

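The cytosolic ribosomal protein genes encode the protein parts of the ribosomes that translate nuclear messages. They were taken from the table of all genes by name alone: every symbol made of RPL or RPS and a number, with or without a closing A, X or L, plus RPLP0, RPLP1, RPLP2 and RPSA. Rows named as processed pseudogenes are left out, though RPS10L, a name that RefSeq gives as a synonym of a pseudogene of RPS10, is matched. The rule matched 82 of 46706 rows, 49 of the large subunit with its stalk and 33 of the small subunit by name. A mean of at least 1 TPM (a share of the library's transcripts, scaled per unit of transcript length and to a fixed library total) over all libraries was reached by 79 of them and by 14404 rows in all.

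The cells were HCC1428-LTED, a single human breast cancer line that is positive for estrogen receptor and was kept without estrogen for long. Cultures in IMEM with 5% charcoal-stripped serum received 1 of 6 estrogen receptor ligands at 30 or 300 nM, or DMSO as vehicle, for 24 h. The ligands were Fulvestrant, SAR439859, GDC-0810, AZD9496 and the hybrids GDC-SAR and AZD-SAR, which carry the side chain of SAR439859 on the scaffold of GDC-0810 or AZD9496. Each of the 12 ligand groups and the DMSO group has 3 libraries, 39 in all. The series text speaks of duplicates where the labels list 3 libraries a group, and nothing says that these came from separate cultures, so p-values measure only the spread between libraries.

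Each ribosomal protein gene has usually 1 working copy among many silent pseudogenes, and most products are needed in equal number in every ribosome. Their mRNAs are the classic TOP mRNAs, which open with a cytosine followed by an unbroken run of pyrimidines (the terminal oligopyrimidine tract). Through that tract LARP1 and the mTOR pathway set how well they are translated and how long they last. In estrogen-dependent breast cancer cells estrogen drives growth and ribosome production, and the ligands tested here oppose the receptor.

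The first bases are shown because they are what these genes share beyond their protein products. RefSeq windows (GRCh38) with an annotated start were matched for 64 of the 82 genes. A run of C and T of at least 8 bases lay on or within 5 bases of the annotated start in 47 of those 64, against 11.5% of all 35116 windows, and the median run was 11 bases against 4 bases. Below, 15 bases before the annotated start and the 15 from the start on are printed 5′ to 3′, with that longest run of pyrimidines in capitals. The RPL7A run of 25 bases goes on past the end of its printed window. The motif was any unbroken run of C and T on the strand of the gene, and it is a description of the letters, not of a proven tract. The first 5 genes were higher with ligand and the next 5 lower; RPS27L is a paralog whose run has 2 bases.
RPLP2, chr11:809952-809981, plus strand: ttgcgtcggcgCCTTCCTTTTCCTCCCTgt
RPL7A, chr9:133348203-133348232, plus strand: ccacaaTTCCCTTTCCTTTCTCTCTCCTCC
RPS19, chr19:41860240-41860269, plus strand: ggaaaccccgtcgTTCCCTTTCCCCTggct
RPL18, chr19:48619164-48619193, minus strand: accccagcccgTTCTCTCTTTCCggacctg
RPS21, chr20:62387088-62387117, plus strand: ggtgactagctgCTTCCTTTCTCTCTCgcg
RPL27A, chr11:8682777-8682806, plus strand: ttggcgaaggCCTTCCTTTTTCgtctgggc
RPL36A, chrX:101390996-101391025, plus strand: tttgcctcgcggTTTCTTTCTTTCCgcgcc
RPL22, chr1:6199581-6199610, minus strand: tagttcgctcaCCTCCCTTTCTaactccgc
RPLP0, chr12:120201097-120201126, minus strand: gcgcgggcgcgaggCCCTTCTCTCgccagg
RPS25, chr11:119018329-119018358, minus strand: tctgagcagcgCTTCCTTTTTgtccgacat
RPS27L, chr15:63157463-63157492, minus strand: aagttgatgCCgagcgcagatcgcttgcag
Genes that rose and genes that fell both open with long runs: the same kind of sequence stands at the start of RPLP2 and of RPL27A.

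TPM sums to the same total in each library, so the sequencing depth is unknown and no counting interval can be given. Between 15818 and 26756 rows were above 0 per library. The 7 abundant noncoding RNAs summed here (RN7SL1, RN7SL2, RMRP, RPPH1, SCARNA2, MALAT1 and NEAT1) held 2.68% to 23.1% of TPM in the 36 ligand libraries and 25.6% to 27.2% in the 3 DMSO libraries. Within that sum RN7SL1 (mean 23078 TPM with ligand and 110359 TPM with DMSO), RMRP, RPPH1 and SCARNA2 averaged lower with ligand. MALAT1 (mean 83970 and 73748 TPM), RN7SL2 and NEAT1 averaged higher. SNORA76C, a noncoding row outside that sum, was higher too, with 6.178% to 18.79% of TPM in the ligand libraries (mean 12.71%). It had 4.565% to 6.244% in the DMSO libraries (mean 5.546%). MALAT1 was listed at 0 in 2 libraries, SAR439859 30 nM replicate 1 and AZD-SAR 300 nM replicate 2, which stand apart from the rest. All 8 luminal epithelial markers were above 1 TPM on average (74.7 to 3669 TPM). Among the 19 markers of stroma, endothelium, immune and basal cells, COL1A1 (11.7 TPM) and CD68 (7.58 TPM) alone reached that level. The summed stroma markers lay at 9.29 to 23.8 TPM in ligand libraries and 7.32 to 9.64 TPM in DMSO libraries; their part in the results was not tested.

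The genes spanned a wide range of levels. Of the 82, 39 averaged at least 1000 TPM over all libraries, 36 lay at 100 to under 1000 TPM, 4 at 1 to under 100 TPM and 3 below. RPS21, a small subunit protein, was highest at 12332 TPM, and among those next to it were RPL30 at 5837, RPS29 at 4802, RPS19 at 4355, RPL28 at 3613, RPL31 at 3552, RPL38 at 3537, RPL10 at 3461 and RPS27 at 3259 TPM. TPM is a level per transcript length, so these values can be set against each other, but short transcripts and pseudogene copies make single levels uncertain. RPL39, a small protein of the exit tunnel, averaged 2.92 TPM and RPS3A 50.9 TPM; how the authors assigned reads that match pseudogenes is not given in the sources used here.

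Together the 82 genes held more of the RNA in most ligand libraries than in DMSO. Their summed level was 10.04% to 14.28% of TPM in the 36 ligand libraries (median 11.53%) and 10.18%, 10.27% and 10.57% in the DMSO libraries. It was above the DMSO range in 33 ligand libraries and below it in 1. By ligand the sum averaged 11.3% ± 0.560 with Fulvestrant, 11.4% ± 0.937 with SAR439859, 12.6% ± 1.16 with GDC-0810, 11.4% ± 1.32 with AZD9496, 12% ± 1.1 with GDC-SAR and 12.3% ± 1.34 with AZD-SAR (SD, n = 6 each), and 10.3% ± 0.208 with DMSO (SD, n = 3). The small subunit genes summed to 5.93% ± 0.788 with ligand (SD, n = 36) and 4.73% ± 0.247 with DMSO (SD, n = 3), and the large subunit genes to 5.90% ± 0.395 with ligand and 5.61% ± 0.0392 with DMSO. RPS21, the most abundant member, carried part of this: without it 31 ligand libraries were above the DMSO range and 4 below. After division by median-of-ratios factors (0.879 to 1.19 over the libraries) the sum ran over 9.38% to 15.6% in ligand libraries and 10.7% to 10.8% in DMSO libraries, with 26 above the DMSO range and 8 below. Since TPM sums to a constant, more of these mRNAs and a shift in the noncoding RNAs above cannot be told apart. Of those RNAs some were lower and others, SNORA76C among them, higher. Nor can a change per cell be told from a change in the mix of cells in bulk RNA.

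**Figure D1:**
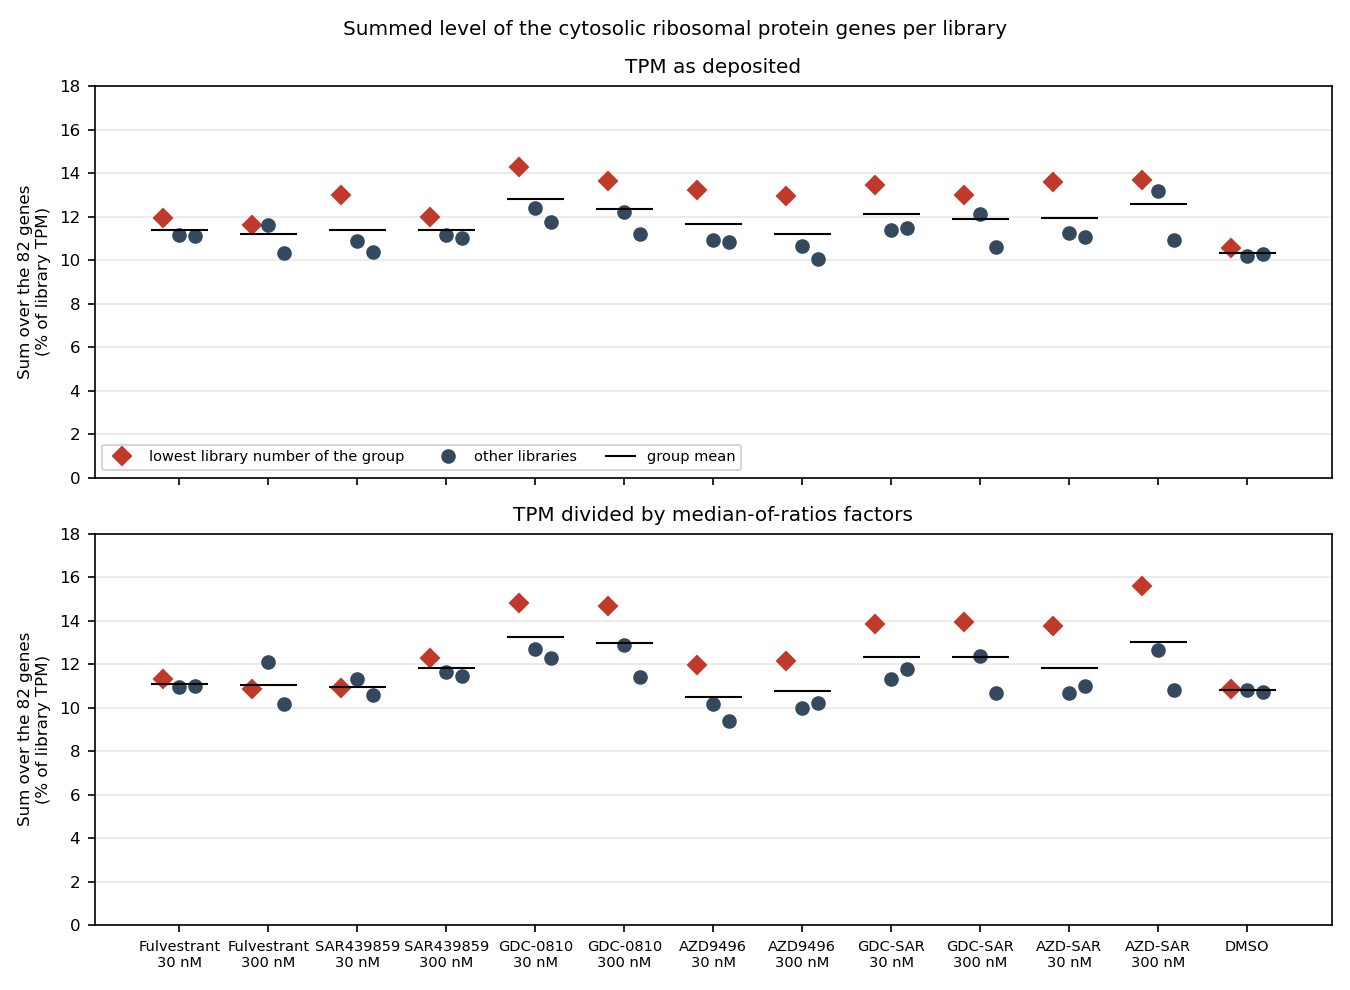
Summed level of the 82 cytosolic ribosomal protein genes in each of the 39 libraries, as % of library TPM (upper panel) and after division by median-of-ratios factors (lower panel); points are libraries, bars group means, red diamonds the library with the lowest serial number of its group. Ligand libraries span 10.04% to 14.28% as deposited against 10.18% to 10.57% for DMSO, and the diamond is the highest point in 12 of 13 groups.

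Gene by gene the family did not move as a block: about as many members rose as fell. With both doses of a ligand pooled against DMSO and tested with limma over all 14404 rows (called at a Benjamini-Hochberg adjusted p under 0.05), Fulvestrant raised 10 and lowered 11 of the 79, SAR439859 raised 11 and lowered 17, and GDC-0810 raised 16 and lowered 15. AZD9496 raised 6 and lowered 3, GDC-SAR raised 13 and lowered 18, and AZD-SAR raised 17 and lowered 17. Over all tested rows the shares called higher and lower were 15.3% and 10.6% with Fulvestrant, 16.4% and 13.7% with SAR439859, 11.0% and 12.6% with GDC-0810, 9.31% and 3.12% with AZD9496, 14.2% and 13.8% with GDC-SAR, and 16.2% and 13.5% with AZD-SAR. In all, 26.6%, 35.4%, 39.2%, 11.4%, 39.2% and 43.0% of the 79 genes were called, in that order of ligands, against 25.9%, 30.1%, 23.5%, 12.4%, 28.0% and 29.7% of all rows: for Fulvestrant, SAR439859 and AZD9496 that is near the background. The median log2 difference of the 79 was 0.00, 0.02, 0.10, 0.05, 0.07 and 0.06, and that of all rows 0.11, 0.06, 0.01, 0.15, 0.05 and 0.07. No gene was called higher with 1 ligand and lower with another, but the 6 comparisons share the 3 DMSO libraries.

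Median-of-ratios scaling tilted the split toward lower. The counts higher and lower became 8 and 17 with Fulvestrant, 10 and 20 with SAR439859, 15 and 15 with GDC-0810, 3 and 13 with AZD9496, 13 and 20 with GDC-SAR, and 14 and 19 with AZD-SAR. The shares of all rows after scaling were 12.8% and 14.4%, 15% and 17%, 12.2% and 13.9%, 4.91% and 6.70%, 14.4% and 15.9%, and 15.1% and 16.4%, higher before lower and in the same order of ligands. The median of the 79 genes moved to -0.09 with Fulvestrant, -0.04 with SAR439859 and -0.11 with AZD9496, and stayed above 0 with GDC-0810 (0.09), GDC-SAR (0.04) and AZD-SAR (0.01). Scaling moved the median of all rows to between 0.01 and 0.03, a shift of over 0.1 with AZD9496. Of the 154 calls as deposited 144 were kept after scaling, and none changed sign. Leaving out DMSO replicate 2 brought the count from 31 to 19 with GDC-0810, from 31 to 18 with GDC-SAR and from 9 to 3 with AZD9496; for AZD9496 it was 3 without DMSO replicate 3 and 5 without AZD9496 300 nM replicate 1.

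**Figure D2:**
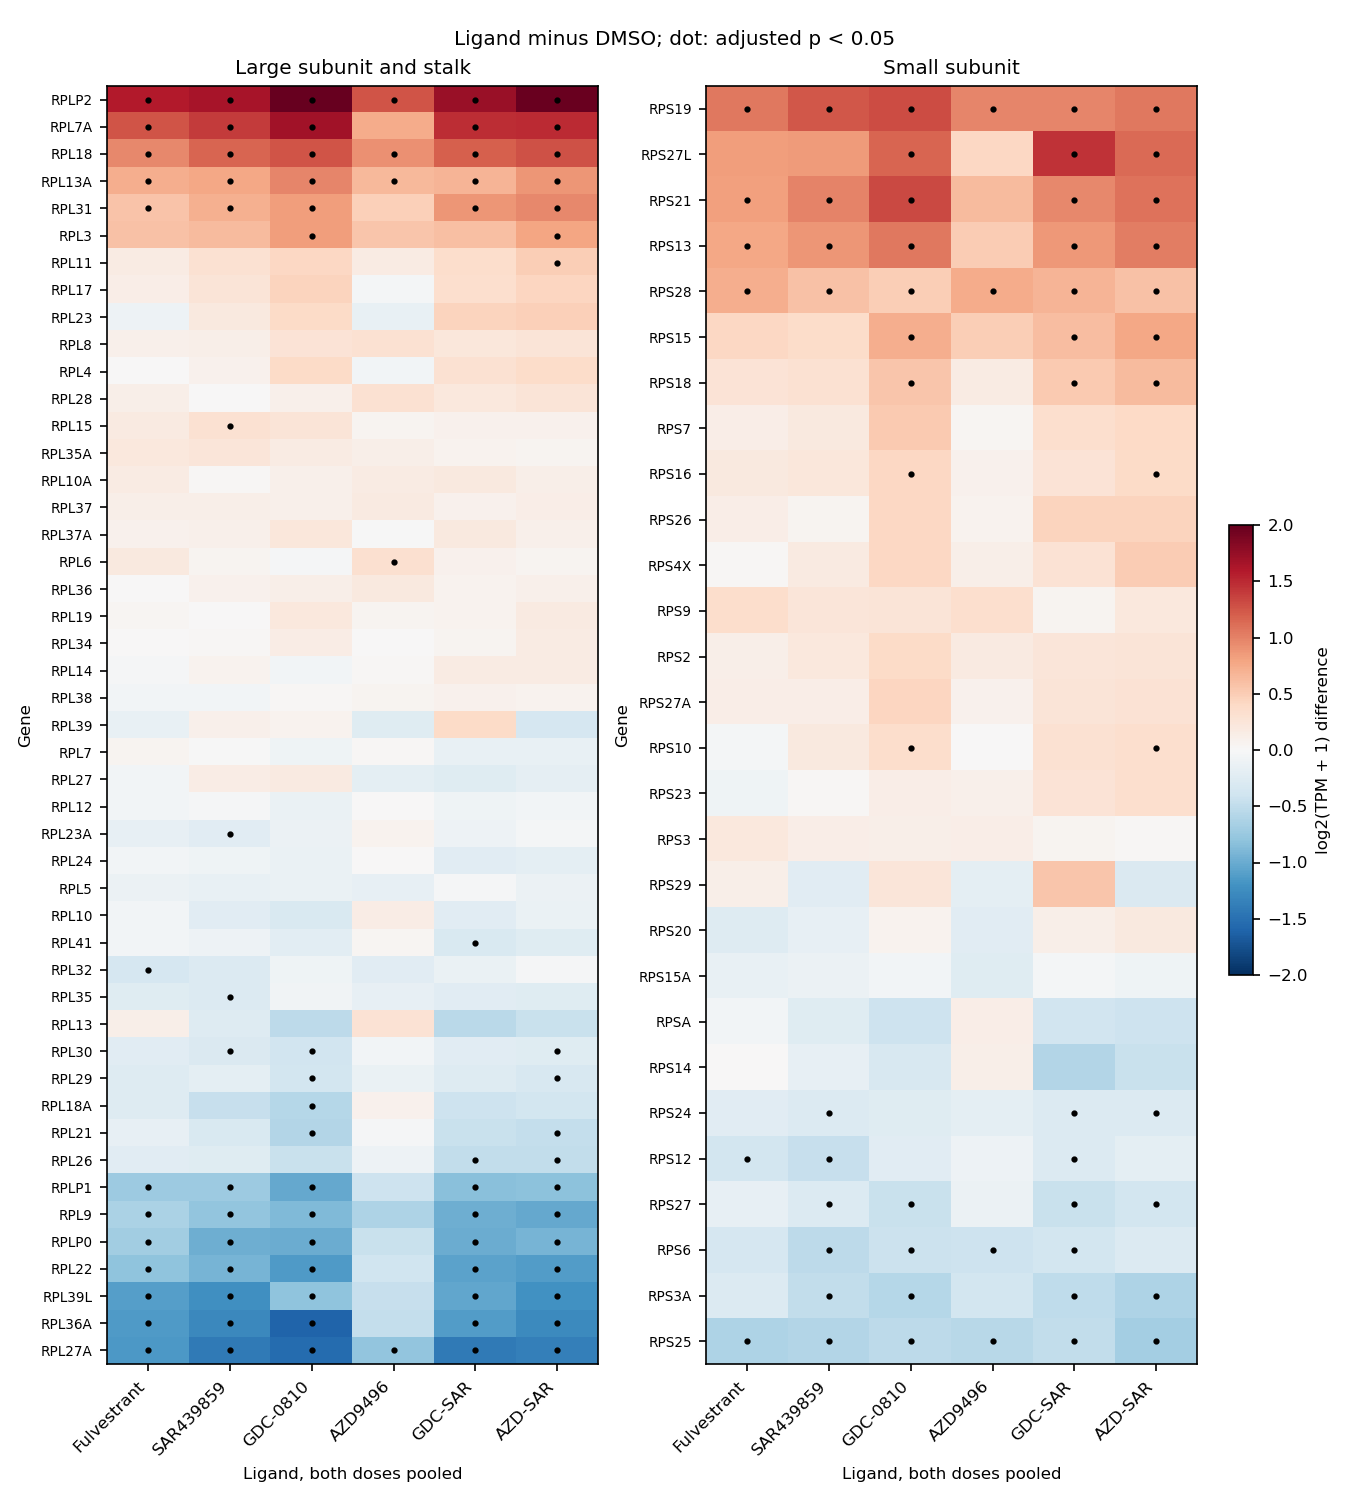
Difference in log2(TPM + 1) between each ligand, both doses pooled, and DMSO for 75 of the 79 tested genes, large subunit with stalk on the left and small subunit on the right, sorted by the mean of the 6 ligands; red is higher and blue lower with ligand, and a dot marks an adjusted p under 0.05 in limma. RPLP2 and RPS19 stand at the top, RPL27A and RPS25 at the bottom, and the AZD9496 column is the palest with 9 dots.

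The stalk of the large subunit, which recruits the translation factors that hydrolyse GTP, split in opposite directions. RPLP2 had 1163 to 5529 TPM in the 36 ligand libraries (median 2609), against 1188, 641 and 687 TPM in the DMSO libraries, and 35 ligand libraries were above every DMSO library. Its log2 difference was 1.58 with Fulvestrant, 1.65 with SAR439859, 2.13 with GDC-0810, 1.25 with AZD9496, 1.73 with GDC-SAR and 1.97 with AZD-SAR (SE 0.378 each; limma adjusted p 0.00228, 0.0013, 0.000156, 0.0271, 0.000927 and 0.000201). The AZD9496 call was lost after scaling (adjusted p 0.0572), and without DMSO replicate 2, DMSO replicate 3, AZD9496 30 nM replicate 1 or AZD9496 300 nM replicate 1.

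RPLP0, the core to which the other stalk proteins bind, had 206 to 472 TPM with ligand (median 326), against 649, 543 and 549 TPM with DMSO. All 36 ligand libraries were below all DMSO libraries. The differences ran from -0.69 with Fulvestrant (SE 0.155, adjusted p 0.00115) to -0.99 with GDC-0810 and with GDC-SAR (adjusted p 3.56e-05 and 1.5e-05), each kept in limma with any library left out. With AZD9496 RPLP0 was at -0.45 (adjusted p 0.054), and at -0.61 after scaling (adjusted p 0.00703). RPLP1, the partner of RPLP2, had 736 to 1918 TPM with ligand (median 1105), against 1506, 2194 and 1931 TPM with DMSO. It fell with all ligands but AZD9496, by 0.72 (Fulvestrant) to 1.03 (GDC-0810; SE 0.173, adjusted p 7.68e-05); with AZD9496 it was at -0.41 (adjusted p 0.119), and at -0.58 after scaling (adjusted p 0.0296).

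**Figure D3:**
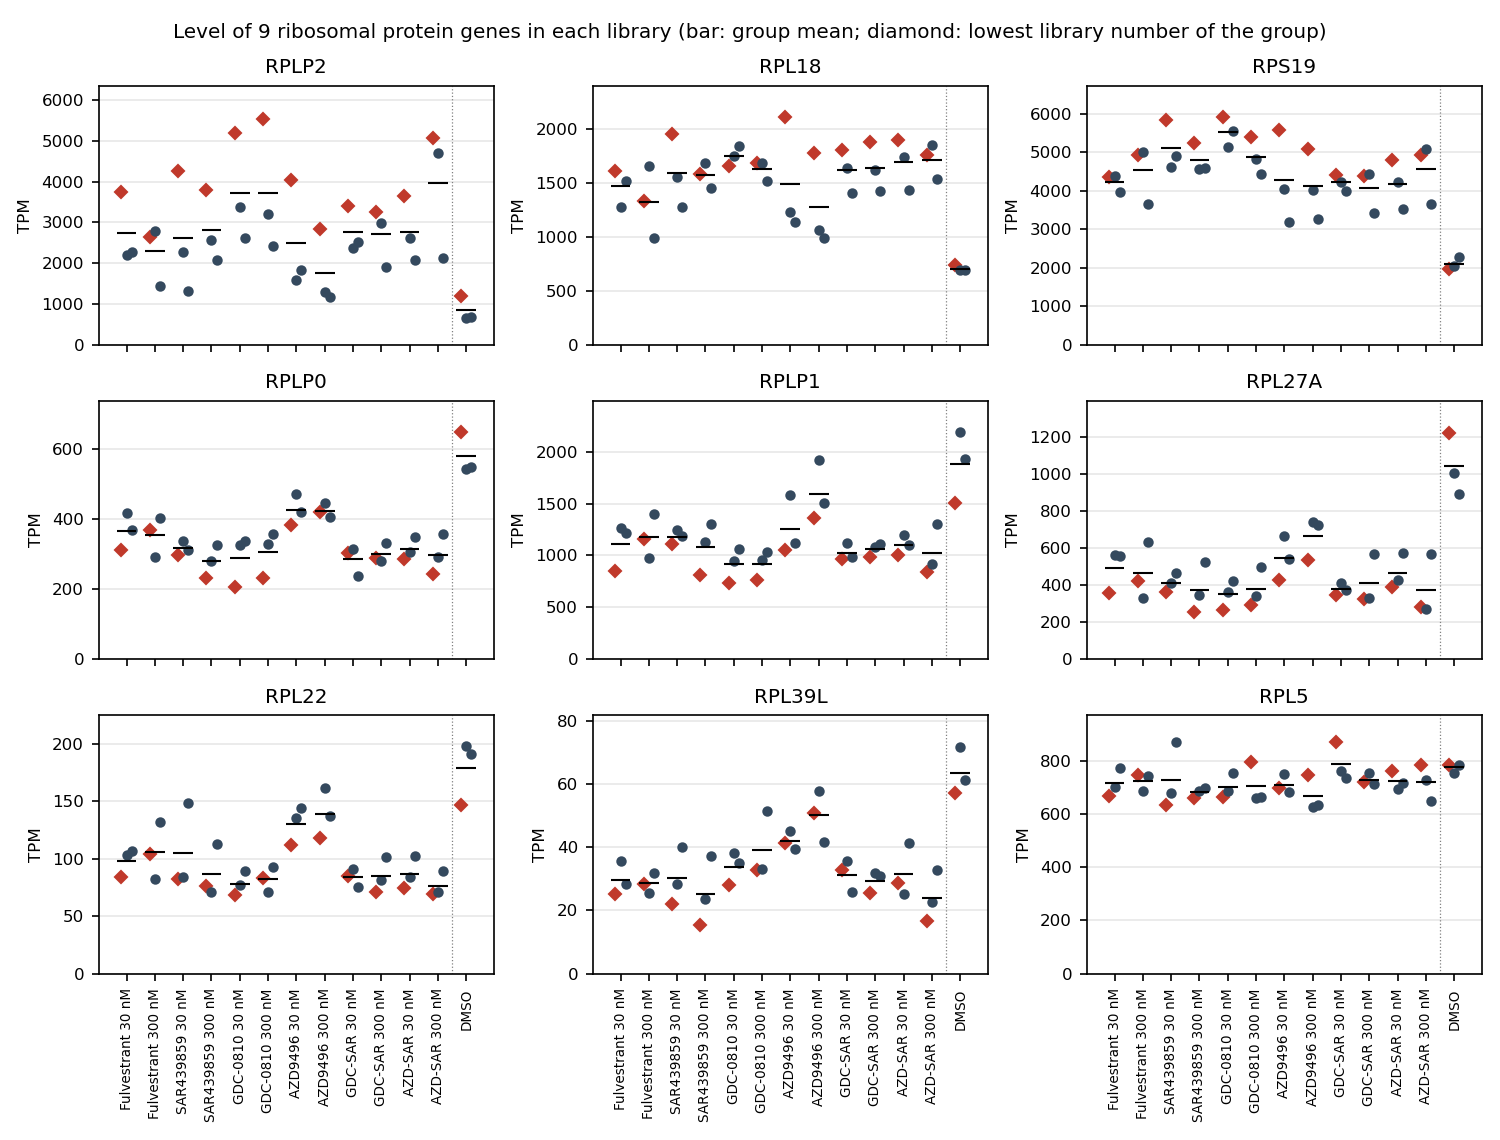
TPM of 9 genes in each library by group, ligands on the left and DMSO on the right; bars are group means and red diamonds the library with the lowest serial number of its group. RPLP2, RPL18 and RPS19 are higher with ligand, RPLP0, RPLP1, RPL27A, RPL22 and RPL39L are lower, and RPL5 stays between 626 and 871 TPM throughout.

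In the rest of the large subunit 4 genes were called higher with at least 5 ligands: RPL7A, RPL18, RPL13A and RPL31. RPL18, a core protein of the subunit, had 988 to 2108 TPM with ligand (median 1612), against 733, 687 and 693 TPM with DMSO, without overlap. It rose with every ligand, by 0.92 (AZD9496, SE 0.179, adjusted p 0.000756) to 1.27 (AZD-SAR, adjusted p 3.16e-06), and each call was kept with any library left out. RPL7A had 487 to 2059 TPM with ligand (median 1303), against 580, 410 and 444 TPM with DMSO. It rose by 1.25 with Fulvestrant (SE 0.319, adjusted p 0.00414) to 1.68 with GDC-0810 (adjusted p 0.000344), while with AZD9496 it was at 0.74 (adjusted p 0.135). RPL13A, also studied as a regulator of translation outside the ribosome, rose with all 6 ligands, by 0.65 (AZD9496, adjusted p 0.034; 0.142 after scaling) to 0.97 (GDC-0810, adjusted p 0.00102); without DMSO replicate 2 it lost the calls of Fulvestrant, AZD9496 and GDC-SAR, and that of AZD9496 also without DMSO replicate 3 or replicate 1 of either dose. RPL31, at the rim of the exit tunnel, had 2365 to 6014 TPM with ligand, against 2350, 1950 and 2150 TPM with DMSO, and rose with 5 ligands by up to 0.96 (AZD-SAR, adjusted p 0.000576). Its Fulvestrant call (0.57, adjusted p 0.0357) was lost in 7 of 9 refits with 1 library left out and after scaling (adjusted p 0.0889), and its SAR439859 call without DMSO replicate 2. RPL3, which reaches into the peptidyl transferase centre, rose with GDC-0810 (0.83, adjusted p 0.0253) and AZD-SAR (0.79, adjusted p 0.028). Each RPL3 call was lost in 5 of 9 refits with 1 library left out, among them those without DMSO replicate 1, without DMSO replicate 2 and without replicate 1 of either dose.

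Of the 8 genes called lower with at least 5 ligands 7 belonged to the large subunit, as did 47 of the 79 tested; after scaling it was 8 of 13. RPL27A had 255 to 738 TPM with ligand (median 416), against 1220, 1002 and 893 TPM with DMSO, and no ligand library reached the DMSO range. Its differences were -1.15 with Fulvestrant, -1.42 with SAR439859, -1.54 with GDC-0810, -0.79 with AZD9496, -1.42 with GDC-SAR and -1.36 with AZD-SAR (SE 0.252 each; adjusted p 6.17e-05 to 0.0361), and all but the AZD9496 call, lost in 6 of 9 refits, were kept with any library left out. RPL36A had 570 to 2020 TPM with ligand, against 2325, 2510 and 2346 TPM with DMSO; it fell with 5 ligands, by 1.12 (GDC-SAR) to 1.60 (GDC-0810, SE 0.277, adjusted p 0.000116). RPL36A overlaps a readthrough transcript with HNRNPH2 on its strand, which reads cannot always be told from. Other genes named here also overlap an annotated gene on their strand, among them RPL13A, RPL17, RPL18, RPL22, RPL27A and RPS13. RPL22, a protein of the subunit surface that binds RNA, had 68.7 to 161 TPM with ligand, against 147, 198 and 191 TPM with DMSO. It fell with 5 ligands by 0.81 (Fulvestrant) to 1.14 (GDC-0810, SE 0.18, adjusted p 3.93e-05), and with AZD9496 was at -0.40 (adjusted p 0.146; 0.0443 after scaling). RPL9 had 118 to 347 TPM with ligand, against 268, 314 and 327 TPM with DMSO, and fell with 5 ligands by 0.64 (Fulvestrant, adjusted p 0.0274) to 1.02 (AZD-SAR, adjusted p 0.000585); the Fulvestrant call was lost without DMSO replicate 2 or 3 and without Fulvestrant 30 nM replicate 1 or 300 nM replicate 2.

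In the small subunit RPS13, RPS19, RPS21 and RPS28 were among the genes called higher with at least 5 ligands. RPS19, needed for maturation of the small subunit and mutated in Diamond-Blackfan anemia, had 3188 to 5915 TPM with ligand (median 4505), against 1976, 2040 and 2276 TPM with DMSO. The groups did not overlap, and the difference was 0.97 with AZD9496 (SE 0.151, adjusted p 5.44e-05) to 1.31 with GDC-0810 (adjusted p 5.46e-07). It rose with all 6 ligands as deposited, after scaling, and without the lowest-numbered library of every group, scaled or not, as no other gene did; every call was also kept with any library left out. RPS21 had 7874 to 22461 TPM with ligand, against 7639, 5569 and 5989 TPM with DMSO, and rose with 5 ligands by 0.82 (Fulvestrant, adjusted p 0.0112, lost without DMSO replicate 2 or 3) to 1.32 (GDC-0810, SE 0.239, adjusted p 0.000195). RPS28 rose with all 6 ligands, by 0.49 (GDC-0810, adjusted p 0.0352) to 0.74 (AZD9496, adjusted p 0.00368); the GDC-0810 call was lost in 7 of 9 refits with 1 library left out, each DMSO library among them. RPS13 had 231 to 821 TPM with ligand, against 259, 208 and 223 TPM with DMSO, and rose with 5 ligands by up to 1.06 (GDC-0810, adjusted p 0.00574). Its calls with SAR439859 and GDC-SAR were lost without DMSO replicate 2 or 3, and that with Fulvestrant in 6 of 9 refits.

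RPS25, known for its role in translation from viral internal entry sites, was the small subunit gene called lower most often. It had 699 to 1277 TPM with ligand (median 876), against 1086, 1470 and 1338 TPM with DMSO, and 35 ligand libraries were below every DMSO library. It fell with all 6 ligands by 0.50 (GDC-SAR, SE 0.143, adjusted p 0.00929) to 0.68 (AZD-SAR, adjusted p 0.000562), also after scaling; without DMSO replicate 2 the calls of GDC-0810, AZD9496 and GDC-SAR were lost, and that of AZD9496 also without DMSO replicate 3. RPS6, the substrate of S6 kinase, had 549 to 1167 TPM with ligand, against 1276, 1225 and 1263 TPM with DMSO, without overlap. It fell with 4 ligands, by 0.37 (GDC-SAR, adjusted p 0.0465) to 0.53 (SAR439859, SE 0.14, adjusted p 0.00466), and with 5 after scaling. Its calls with GDC-0810, AZD9496 and GDC-SAR were lost without any 1 of the DMSO libraries, and in 3, 6 and 8 of 9 refits in all. Smaller declines were called for RPS3A with 4 ligands (by up to 0.62 with AZD-SAR, adjusted p 0.00146) and RPS27 with 4 (by up to 0.45 with GDC-SAR, adjusted p 0.000714). The RPS3A calls with SAR439859 and GDC-SAR were lost without DMSO replicate 2. The RPS27 call with SAR439859 was lost in 6 of 9 refits, among them those without each DMSO library.

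At the other end 35 of the 79 genes were called with no ligand, the share of all rows not being counted. RPL5 and RPL11, which bind MDM2 together with the smallest ribosomal RNA when ribosome assembly fails, behaved like this or nearly so. RPL5 had 626 to 871 TPM with ligand (median 707), against 785, 755 and 784 TPM with DMSO, and its differences of -0.17 to -0.03 were not called with all libraries. RPL11 had 1239 to 2613 TPM with ligand, against 1300, 1434 and 1442 TPM with DMSO; it was called with AZD-SAR alone (0.49, adjusted p 0.0393), a call lost after scaling and in 7 of 9 refits. RPSA, the laminin receptor protein, had 109 to 265 TPM with ligand, against 171, 216 and 226 TPM with DMSO, and RPS27A, made as a fusion with ubiquitin, 426 to 849 TPM, against 453, 479 and 488 TPM with DMSO; neither was called against DMSO with doses pooled. RPL10, which joins the subunit last, had 2238 to 4418 TPM with ligand, against 3465, 3804 and 3909 TPM with DMSO, with differences of -0.30 to 0.15. RPL39 had 0.175 to 9.90 TPM with ligand, against 1.39, 3.59 and 3.30 TPM with DMSO, and with an SE of 0.472 a change of that size was not detectable.

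Among the paralogs RPL39L fell and RPS27L rose. RPL39L, best known from testis, had 15.2 to 57.7 TPM with ligand (median 32.3), against 57.2, 71.5 and 61.3 TPM with DMSO; 35 ligand libraries were below every DMSO library. It fell with 5 ligands, the log2 difference being -0.81 with GDC-0810 (adjusted p 0.00841, lost without DMSO replicate 2) and -1.23 with SAR439859 (SE 0.22, adjusted p 7.62e-05), and was at -0.46 with AZD9496 (adjusted p 0.178). RPS27L, a target of p53, had 12.2 to 70.6 TPM with ligand, against 17.1, 11.9 and 13.1 TPM with DMSO. It rose with GDC-0810 (1.17, SE 0.417, adjusted p 0.0395), GDC-SAR (1.44, adjusted p 0.00989) and AZD-SAR (1.14, adjusted p 0.0381), and each call was lost without DMSO replicate 2; those of GDC-0810 and AZD-SAR were lost in 6 and 7 of 9 refits. RPL3L (0 to 0.225 TPM), RPL10L (0 to 0.155 TPM, listed at 0 in 33 libraries) and RPS10L (0 to 5.00 TPM, a name that RefSeq gives as a synonym of a pseudogene of RPS10) stayed below the filter and were not tested.

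The order of libraries within a group moved with the same genes. The library with the lowest serial number in its title had the highest summed level of the 82 genes in 12 of 13 groups: 11.6% to 14.3% of TPM in the 12 such ligand libraries (median 13.1%) and 10.04% to 13.2% in the other 24 (median 11.1%). RPLP2 was highest in that library in 11 of the 12 ligand groups, RPL7A in 11 and RPS19 in 8, while RPL22 was lowest there in 8. Across the 79 genes the gap between that library and the others of its ligand group correlated with the difference between ligands and DMSO. Pearson r was 0.809 and Spearman rho 0.789, as a description across genes that share libraries. Over all 14404 rows, which were not matched to the 79 genes in level, they were 0.305 and 0.300. A link particular to these genes is therefore not shown. With the lowest-numbered library of every group left out, the correlation across the 79 genes was 0.738 and 0.680. Of the 154 calls 126 were then kept with no change of sign. Left out and scaled, 123 were kept. What the serial number stands for is not given, and its part in the results was not tested. The DMSO libraries carry numbers 7 to 9 and the ligand libraries numbers from 58 to 105. Every comparison of ligand with DMSO also compares these ranges, and the effects cannot be told apart. Without the lowest-numbered libraries RPLP2 was at 1.12 to 2.11, RPS19 at 0.74 to 1.20 and RPLP0 at -0.92 to -0.33 over the 6 ligands. RPS9 was then called higher with all 6, though with none when all libraries were used. It had 248, 252 and 466 TPM with DMSO. For RPS9 the lowest-numbered DMSO library lay 0.90 above the other DMSO libraries in log2(TPM + 1), against 0.10 in the ligand groups.

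**Figure D4:**
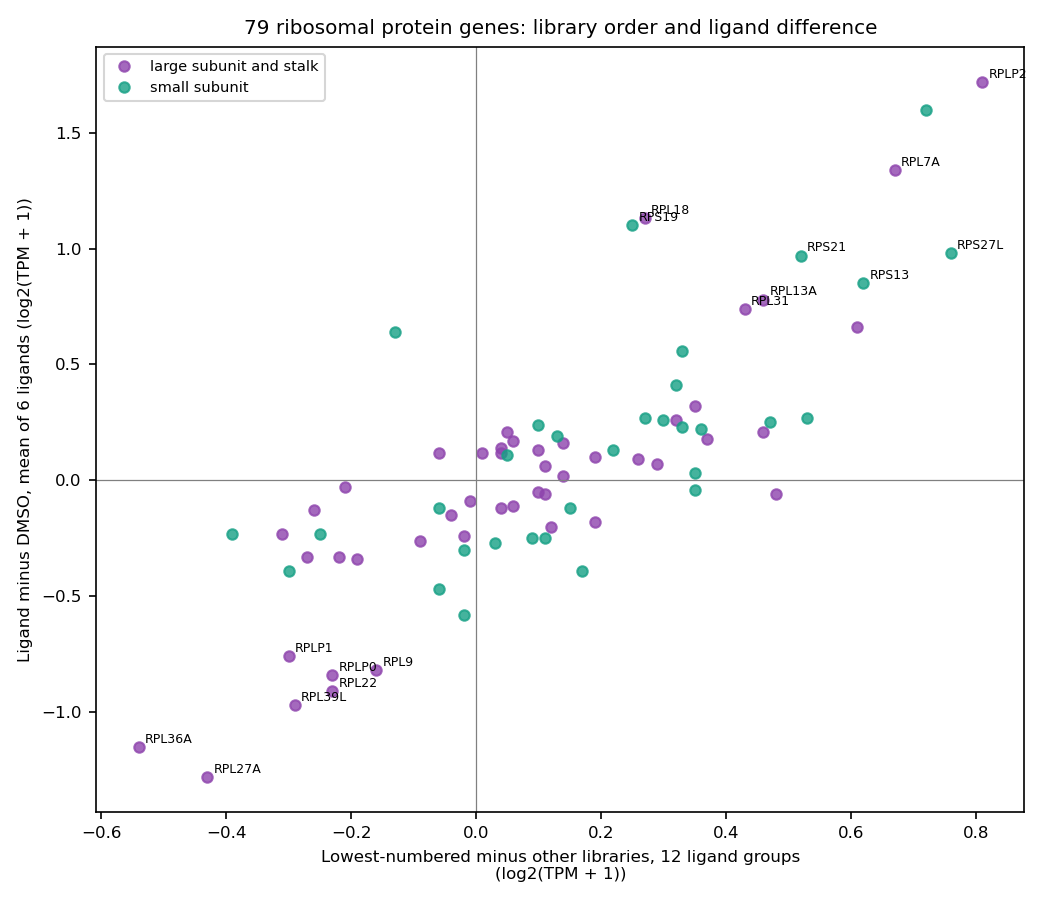
Each point is 1 of the 79 genes: on the x axis the mean log2(TPM + 1) of the lowest-numbered library minus the other libraries over the 12 ligand groups, on the y axis ligand minus DMSO as the mean of 6 ligands. RPLP2 and RPL7A lie at the upper right, RPL27A and RPL36A at the lower left, and r is 0.809 across genes.

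No difference between the doses was called. With 300 against 30 nM of the same ligand limma called 0 of the 79 genes for each ligand, against 0% of all rows. At an unadjusted p under 0.05 there were 2 genes for AZD-SAR, 1 for GDC-0810 and 0 for the other ligands. How many of all rows reached an unadjusted p under 0.05 was not counted, here or for the comparisons between ligands. The typical 95% interval of a gene's dose difference was ± 0.37 on the log2 scale, before adjustment over all rows. Differences of that size, and greater ones for the more variable genes, may have been missed. The greatest dose differences were -0.96 for RPL39 with GDC-0810 and 0.69 for RPS29 with AZD9496. Against DMSO the called genes numbered 17 with Fulvestrant, 24 with SAR439859, 23 with GDC-0810, 9 with AZD9496, 22 with GDC-SAR and 21 with AZD-SAR at 30 nM, and 17, 25, 19, 3, 21 and 32 in the same order at 300 nM. The background shares were 19.1%, 25.5%, 16.8%, 11.3%, 22.5% and 20.6% of all rows at 30 nM, and 19.2%, 24.1%, 16%, 5.93%, 20.3% and 25.6% at 300 nM. RPS19 and RPL18 were called higher in all 12 of these comparisons. Leaving out the library with MALAT1 at 0 gave 14 in place of 24 genes for SAR439859 at 30 nM and 19 in place of 32 for AZD-SAR at 300 nM. At 30 nM the count also moved by over 1.5 times without Fulvestrant replicate 1 (8), GDC-0810 replicate 1 (14), AZD9496 replicate 1 (5) or 3 (4), without DMSO replicate 2 for SAR439859 (11), GDC-0810 (14) and AZD9496 (3), and without DMSO replicate 3 for SAR439859 (14) and AZD9496 (3). At 300 nM it did so without Fulvestrant replicate 1 (9) or 2 (7), SAR439859 replicate 1 (14) or AZD-SAR replicate 1 (18), without DMSO replicate 2 for Fulvestrant (6), SAR439859 (16), AZD9496 (1) and AZD-SAR (20), and without DMSO replicate 3 for Fulvestrant (9) and AZD9496 (1).

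Few genes were called between ligands, and in TPM as deposited each called pair involved AZD9496. That did not hold under settings added after seeing the data: with a block on library order GDC-0810 against SAR439859 at 30 nM gave 2 genes, GDC-0810 against Fulvestrant at 30 nM 3 and AZD-SAR against Fulvestrant at 300 nM 1. Without the lowest-numbered libraries GDC-0810 against SAR439859 at 30 nM gave 1, and with scaling as well AZD-SAR against GDC-0810 at 30 nM gave 2. A limma F test among the 6 ligands called 0 genes at 30 nM (5.11% of all rows), with 11 genes at an unadjusted p under 0.05. The share of all rows at that unadjusted threshold was not counted. At 300 nM the F test called RPL39L alone (adjusted p 0.0355, 4.91% of all rows). After scaling RPL39L was at an adjusted p of 0.0539 in that test, and without the lowest-numbered libraries or the expression filter the count was 0, while with the block it was 25. Of 30 ligand pairs at matched dose, adjusted within each pair only, 25 gave 0 called genes. The 5 others were AZD-SAR against AZD9496 at 300 nM with 13 genes (8.57% of all rows), AZD9496 against SAR439859 at 300 nM with 6 (7.11%) and at 30 nM with RPS12 (5.35%), AZD9496 against GDC-0810 at 300 nM with RPLP1 (1.12%), and GDC-SAR against AZD9496 at 30 nM with RPL13 (4.46%). Against SAR439859 at 300 nM, genes higher with AZD9496 included RPL22 (0.69), RPL23A (0.34), RPL36A (1.04), RPL39L (1.03) and RPLP0 (0.61); each of these calls was lost in 2 to 5 of 6 refits with 1 library left out, and after scaling RPL39L alone of them was still called. The RPS12, RPLP1 and RPL13 calls were lost in 3, 5 and 6 of 6 refits and after scaling.

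On the AZD9496 scaffold the side chain of SAR439859 went with a difference in 13 of these genes at 300 nM. RPL23 (log2 difference 0.89, 95% interval 0.31 to 1.48) and RPL17 (0.73, 95% interval 0.32 to 1.13) were higher with the hybrid in limma. RPL39L had 16.7, 22.5 and 32.6 TPM with AZD-SAR, against 50.7, 57.7 and 41.7 TPM with AZD9496, a difference of -1.07 (-1.59 to -0.55, adjusted p 0.00954). RPL36A (-1.06, -1.71 to -0.41), RPL13 (-1.02, -1.58 to -0.46), RPL27A, RPS14, RPL22, RPLP1, RPSA and RPL41 were lower with the hybrid too. The direction of the split turned with the scaling: 3 genes were higher and 10 lower as deposited (2.17% and 6.40% of all rows), against 11 higher and 4 lower after scaling (4.83% and 5.41%) and 23 higher and 14 lower with the block on library order. After scaling RPL23, RPL17, RPL39L, RPL13 and RPL22 were still called, while RPL36A (adjusted p 0.055), RPL27A, RPS14, RPLP1, RPSA and RPL41 (0.0509 to 0.0855) were not, and RPL7A (1.15, adjusted p 0.044) was among those then called higher. RPL36A had 717, 660 and 1426 TPM with AZD-SAR, against 1630, 2020 and 1858 TPM with AZD9496, and the AZD-SAR libraries lay below all AZD9496 libraries for RPL36A and RPL39L. These calls rest on few libraries: 13 became 0 without AZD-SAR replicate 1 or AZD9496 replicate 2, 1 without AZD-SAR replicate 2 (the library with MALAT1 at 0), 4 without AZD9496 replicate 3 and 36 without AZD-SAR replicate 3, and 0 with only the libraries compared. At 30 nM the same pair gave 0 genes (1.68% of all rows, 6 genes at an unadjusted p under 0.05), with RPL22 at the lowest p.

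On the GDC-0810 scaffold the same side chain gave 0 called genes at either dose in limma, with 1.28% of all rows called at 30 nM and 1.25% at 300 nM and 2 genes at an unadjusted p under 0.05 in each. RPLP2 differed by -0.41 (95% interval -1.30 to 0.48) and RPLP0 by -0.01 (-0.37 to 0.36) between GDC-SAR and GDC-0810 at 300 nM, so for RPLP2 a difference of up to -1.30 lies within the interval. AZD-SAR and GDC-SAR, which share the side chain and differ in scaffold, gave 0 called genes and 0% of all rows at both doses, with 1 gene (RPS29) at an unadjusted p under 0.05 at each. There RPLP2 differed by 0.49 (-0.40 to 1.38) and RPS19 by 0.15 (-0.20 to 0.51) at 300 nM. Whether the side chain acts differently on the 2 scaffolds was tested as an interaction. Limma called 0 genes at both doses, against 0% of all rows at 30 nM and 0.00694% at 300 nM. At an unadjusted p under 0.05 there were 4 and 26 genes at 30 and 300 nM. The share of all rows at that unadjusted threshold was not counted, so these counts are not shown to be particular to these genes. The 95% interval of the interaction was typically ± 0.52. For the other pairs with 0 called genes, the background shares ran over 0% to 6.16% at 30 nM and 0% to 3.62% at 300 nM. At 30 nM they were 6.16% for GDC-0810 against SAR439859, 2.25% for GDC-0810 against Fulvestrant and 1.97% for AZD9496 against Fulvestrant. Also at 30 nM they were 1.65% for AZD-SAR against GDC-0810, 0.257% for GDC-SAR against SAR439859 and 0.0555% for AZD-SAR against SAR439859. At 300 nM the highest were 3.62% for GDC-SAR against AZD9496, 2.60% for GDC-0810 against Fulvestrant and 2.46% for GDC-0810 against SAR439859.

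**Figure D5:**
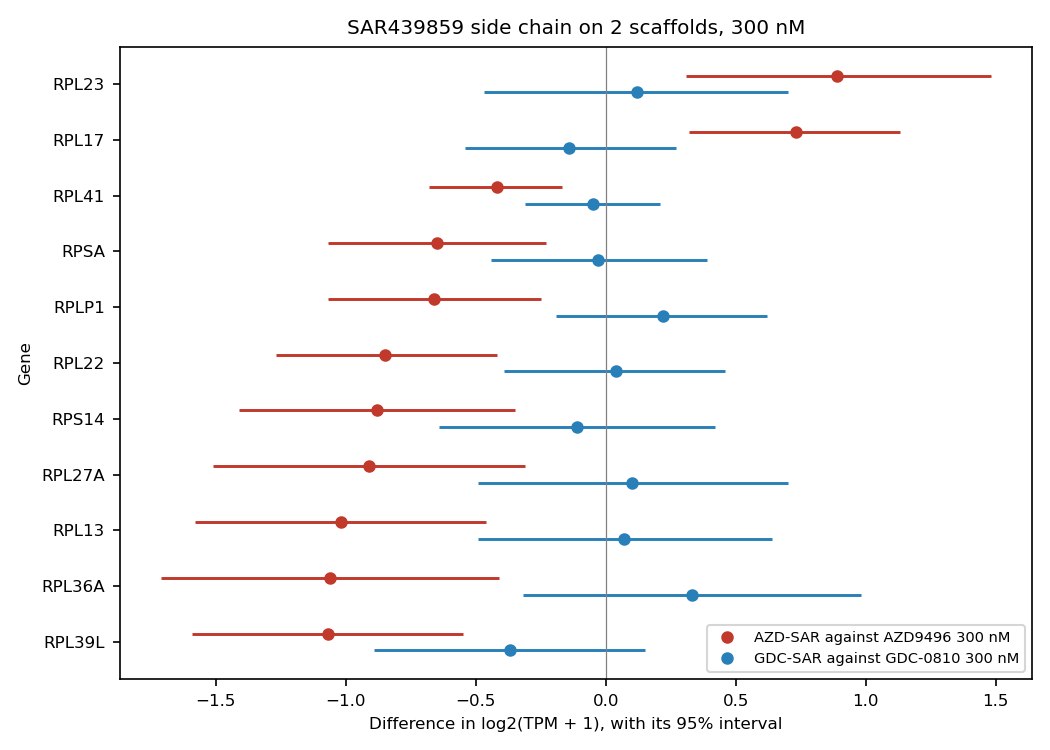
Difference in log2(TPM + 1) at 300 nM with its 95% interval for 11 of the 13 genes called between AZD-SAR and AZD9496 (red), and the same genes between GDC-SAR and GDC-0810 (blue). The red intervals all leave out 0 because the genes were chosen that way, the blue intervals all include it, and the difference between the 2 was not called for any gene.

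Features that the name rule did not use are given here for the genes that rose and those that fell. How many of all rows were called with at least 5 ligands, or with none, was not counted. All 9 genes called higher with at least 5 ligands that have a start window carry a pyrimidine run of at least 8 bases (median 13), as do all 7 of the lower ones (median 11), against 18 of 26 genes called with none. A small nucleolar RNA lies inside 5 of the 10 higher genes, 1 of the 8 lower ones and 14 of the 35 called with none, per GENCODE 29; the hosted RNAs are not analysed here. Median transcript GC was 53.0% in the higher, 47.9% in the lower and 48.3% in the uncalled genes, and across the 79 genes GC correlated with the ligand difference at r 0.265, transcript length at -0.0209 and mean level (log2) at 0.311, as a description across genes. By subunit the higher genes split 5 small and 5 large, the lower ones 1 small and 7 large, among 32 small and 47 large tested. After scaling it was 4 small and 4 large among the higher and 5 small and 8 large among the lower.

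Genes next to these in function were read by count, beside the shares of all rows called higher (9.31% to 16.4% over the ligands) and lower (3.12% to 13.8%) as deposited. FAU, which encodes a small subunit protein fused to a ubiquitin-like domain, rose with all 6 ligands by 0.53 to 0.70 (1049 ± 107 TPM over 36 ligand libraries, 677 ± 68.5 TPM over 3 DMSO libraries, SD). GNB2L1 (RACK1), a scaffold on the small subunit, rose with 3 ligands by up to 1.12 with AZD-SAR. RPL22L1, the paralog of RPL22, fell with all 6 by 0.60 to 1.02, and RPL7L1 with 5. Of 19 other TOP mRNAs 1 to 3 rose and 5 to 9 fell per ligand (median -0.11 to 0.06), and 1 to 3 rose and 6 to 9 fell after scaling: the translation factor gene EIF3L rose with all 6 ligands (1.08 to 1.81) and EIF4B with all but AZD9496, while EIF3E, the nucleolar NPM1 and HNRNPA1 fell with all 6. Of 15 regulators of TOP translation 1 to 4 rose and 1 to 7 fell, and 0 to 4 rose and 2 to 8 fell after scaling; EIF4E, the cap-binding protein, fell with all 6 by 0.83 to 1.13 and TSC2, an inhibitor of mTOR signalling, rose with all 6 by 0.45 to 0.71, though not with AZD9496 after scaling (adjusted p 0.1).

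Of the genes for ribosome assembly more fell than rose with every ligand but AZD9496, and with all 6 after scaling (AZD9496 0 higher and 3 lower). Of the 25 measured, 7, 10, 8, 0, 7 and 10 fell and 0, 0, 0, 1, 1 and 2 rose, in the order of ligands used above, against 10.6%, 13.7%, 12.6%, 3.12%, 13.8% and 13.5% of all rows lower. BOP1, a maturation factor of the large subunit, was at -1.10 to -0.52 and called with all but AZD9496, as was the nuclear import receptor KPNB1 (-0.73 to -0.36). The 76 mitochondrial ribosomal protein genes had 3 to 8 higher and 2 to 17 lower and a median of -0.11 to -0.01. After scaling 1 to 8 were higher and 7 to 21 lower, AZD9496 giving 1 and 7 in place of 3 and 2; MRPL41, MRPL53 and MRPS21 rose and MRPL18 and MRPL50 fell with all 6, but after scaling MRPL41 and MRPL53 were not called with AZD9496, nor MRPL41 with SAR439859. Of 10 host genes of small nucleolar RNAs, EPB41L4A-AS1 rose with 5 ligands (by up to 1.91 with AZD-SAR) while SNHG6, SNHG16 and LRRC75A-AS1 fell with 5. Across all 862 rows named as pseudogenes of the members, the summed level was 0.0588% to 0.104% of TPM in ligand libraries and 0.0425% to 0.0495% in DMSO libraries, without overlap. RPS21P4 alone had 45.5 to 250 TPM with ligand and 11.5 to 15.8 TPM with DMSO.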

How the data were processed

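RNA was sequenced as 39 stranded NuGEN libraries, per the labels' protocols. The authors deposited 1 table of TPM values; STAR and GRCh38 are named per the submitters' processing notes, while no source used here gives the counter, annotation or versions. Libraries were grouped by the labelled agent and dose. Tests used limma 3.58.1 in R 4.3.3 on log2(TPM + 1), with a mean per group, 1 fit over all libraries (26 residual degrees of freedom), a trended empirical Bayes prior, rows averaging at least 1 TPM and Benjamini-Hochberg adjustment over the 14404 rows of each comparison. A fold change on this scale understates the change of low genes. Pooled comparisons took the mean of both doses. Alternatives were a pseudocount of 0.1, no filter, median-of-ratios scaling with and without these genes, only the libraries compared and each library left out; a block on library order and leaving out the lowest-numbered libraries were added after seeing the data. The fit was tested on simulated data. The table uses the older symbols GNB2L1, LRRC75A-AS1 and EFTUD1. Named genes were a fixed set of stalk, other members and paralogs, the 10 highest, those below the filter, up to 6 called each way per comparison with DMSO, the 10 with the smallest p of each F test, and 3 each way per structural pair or dose comparison; other members named here were chosen after their values were seen. The members and lists were chosen with earlier results of these data known. Some members count in the totals but are not reported here by name. Figures used matplotlib 3.10.9.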

Additional observations from a re-analysis of the deposited data

How the results depend on the processing

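No paired analysis was possible because the labels give no replicate number shared between groups; a block on the order of library numbers, added after seeing the data, is no pairing from the design. With that block the called genes against DMSO numbered 26 with Fulvestrant, 39 with GDC-0810, 17 with AZD9496 and 36 with GDC-SAR at 30 nM, 34 with GDC-0810 and 8 with AZD9496 at 300 nM, and 21 with AZD9496 pooled; AZD-SAR against AZD9496 gave 1 at 30 nM and 37 at 300 nM, the F tests 7 and 25, the side chain effect between scaffolds 11 at 300 nM, and the 24 other pairs together 89 in place of 9. Without the expression filter the counts were 13 (SAR439859 30 nM), 5 (AZD9496 30 nM), 9 (Fulvestrant 300 nM), 21 (AZD-SAR 300 nM), 4 (AZD9496 pooled), 20 (GDC-SAR pooled), 3 (AZD-SAR against AZD9496 300 nM), 0 (F test 300 nM) and 3 (other pairs). With only the libraries compared they were 7 (SAR439859 30 nM), 36 (GDC-SAR 30 nM), 1 (AZD9496 300 nM), 21 (AZD-SAR 300 nM), 18 (SAR439859 pooled), 0 (AZD-SAR against AZD9496 300 nM) and 3 (other pairs). Scaling, with or without these genes in the factors, gave 6 for AZD9496 300 nM, 16 for AZD9496 pooled, 2 for the other pairs, a median of -0.09 for Fulvestrant pooled and of -0.11 or -0.12 for AZD9496 pooled, and moved the DMSO sum to 10.8%. Without the lowest-numbered library of every group, chosen after seeing the data, the GDC-0810 pooled median was 0.01, AZD-SAR against AZD9496 300 nM gave 1, the F test at 300 nM 0 and the other pairs 5; with scaling as well the pooled medians were -0.10 (Fulvestrant), -0.02 (GDC-0810), -0.13 (AZD-SAR), -0.04 (GDC-SAR) and -0.18 (AZD9496), the pair at 300 nM gave 1, and the F tests 1 at 30 nM and 0 at 300 nM. Shares of all rows called are not given here for the block, the missing filter, only the libraries compared or the lowest-numbered libraries left out. Shifts in those counts are therefore not shown to be particular to these genes. The cause of these and the other shifts was not tested.

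Leaving out 1 library at a time, the counts against DMSO ran over 8 to 18 (Fulvestrant 30 nM), 11 to 21 (SAR439859 30 nM), 14 to 25 (GDC-0810 30 nM), 3 to 13 (AZD9496 30 nM), 6 to 17 (Fulvestrant 300 nM), 14 to 28 (SAR439859 300 nM), 1 to 4 (AZD9496 300 nM), 18 to 46 (AZD-SAR 300 nM), 19 to 33 (GDC-0810 pooled), 3 to 10 (AZD9496 pooled) and 18 to 33 (GDC-SAR pooled). AZD-SAR against AZD9496 at 300 nM ran over 0 to 36 and the other pairs over 2 to 18. Where this left 1 group with fewer libraries, the fit took its spread from all groups; the F tests and the side chain effect were not refitted this way or with only the libraries compared. Of the 516 differences read for named genes under each other setting, 0 calls were reversed in direction. Scaling lost 13 calls and gained 13, no filter lost 35, and a pseudocount of 0.1 lost 2. Differences that were not called could change sign. With AZD9496 at 30 nM, 47 of the 79 tested genes were above 0 as deposited and 23 after scaling. Depth is unknown, so no counting error can be given, and 3 libraries a group limit what could be detected.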
